A study of Homo sapiens with 6 samples.

Results

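GDF15, INHBA, INHBB, INHBE, BMP2, BMP4, TGFB1, TGFB2 and GDF11 encode 9 secreted ligands of the TGF-beta superfamily. These genes were chosen by name, with earlier results of these data known. They were followed among the 60604 genes of a count table from MIA PaCa-2 cells, an established human pancreatic carcinoma line. In the BP+Huaier group the cells received 10 mg/ml of Huaier, prepared from a fungus of Chinese medicine, on top of 12.5 µg/ml of black phosphorus (BP), an allotrope of phosphorus. In the BP group they received 12.5 µg/ml of BP alone. Each group held 3 libraries, and every library was labelled wild type. Both groups carried BP, and Huaier was the labelled difference between them. Whether a group's libraries came from separate cultures is not labelled, so the spread behind each p-value may be technical. How long the cells were treated is not given, and untreated cells were not analysed here. Total counts on genes lay between 15808056 and 16856727 in the BP+Huaier libraries and between 15657593 and 17036565 in the BP libraries. On the first principal component of all genes tested, with 74.8% of the variance, BP+Huaier 1 and 2 lay at 50.3 and 49.8, BP+Huaier 3 at 6.61 and the BP libraries between -39.2 and -31.1. BP+Huaier 3 thus stood apart from its group, and the reason was not tested.

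Ligands of this superfamily are made as precursors, cut by proprotein convertases such as furin, and released as disulphide-linked dimers. Most of them bind a pair of type II and type I serine/threonine kinase receptors, which phosphorylate SMAD proteins. TGF-betas and activins act mainly through SMAD2 and SMAD3, and bone morphogenetic proteins (BMPs) through SMAD1, SMAD5 and SMAD9. GDF15 is a distant member that is induced by many cell stresses and signals through GFRAL, a receptor of the hindbrain that works with RET. In pancreatic cancer, TGF-beta signalling is known both for growth restraint and for invasion.

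Of the 9 ligand genes, GDF15, INHBB and TGFB1 rose with Huaier added to BP, and GDF11 did not pass the test. INHBE and TGFB2 were counted in too few reads to be tested, INHBE with more and TGFB2 with fewer counts in BP+Huaier. INHBA, BMP2 and BMP4 were below detection, with at most 1 count in any library. Thus 3 of the 4 tested ligands were called higher and 0 lower by the quasi-likelihood test of edgeR, with a threshold of 0.05 after Benjamini-Hochberg adjustment over 15022 genes. Of all genes tested, 29.3% were called, 14.4% higher and 15.0% lower. Of the protein-coding genes tested, 16.6% were called higher and 12.8% lower. The ligands were chosen with earlier results known, so setting their count against these shares is no test of the set. With TMM scaling 2160 genes were called higher and 2246 lower, and with library size in place of TMM 1054 and 2954, while GDF15, INHBB and TGFB1 were called higher under both. All 4 tested ligands had positive log2 fold changes, so the 0 lower says nothing of TGFB2, which was not tested here and was called lower with no filter on low counts and without BP 3 or any 1 of the BP+Huaier libraries. Each of the 4 tested ligands had at least 20 counts in every library.

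The promoters of the 3 ligands that rose are shown because these genes moved together, and that of TGFB2 because its counts went the other way. Each is 300 bases of GRCh38.p14 from RefSeq, from 250 bases before to 50 bases after the annotated start. Of the 9 ligands, 7 were matched in that set. Capitals mark matches on either strand to the letters searched, which were TGANTCA (AP-1), TGATGNAA (the core of the composite site of C/EBP and ATF factors), TGACG (the core of a cyclic AMP response element), CACGTG (E-box), GGGCGG (GC box of Sp1) and GCGNGGGCG (EGR1).
GDF15 (chr19:18385908-18386207, plus strand): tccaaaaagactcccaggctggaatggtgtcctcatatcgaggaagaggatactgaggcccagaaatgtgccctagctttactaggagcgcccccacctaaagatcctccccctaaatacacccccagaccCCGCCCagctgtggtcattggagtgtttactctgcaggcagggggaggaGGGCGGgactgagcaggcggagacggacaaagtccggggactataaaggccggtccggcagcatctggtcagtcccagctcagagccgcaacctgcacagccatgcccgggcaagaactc
INHBB (chr2:120345886-120346185, plus strand): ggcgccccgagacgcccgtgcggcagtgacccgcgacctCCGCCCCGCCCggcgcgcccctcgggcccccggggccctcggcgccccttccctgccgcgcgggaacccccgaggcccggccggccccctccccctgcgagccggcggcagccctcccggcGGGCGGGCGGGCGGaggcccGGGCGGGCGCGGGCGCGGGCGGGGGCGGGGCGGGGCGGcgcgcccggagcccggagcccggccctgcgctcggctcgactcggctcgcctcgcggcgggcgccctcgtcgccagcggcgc
TGFB1 (chr19:41353873-41354172, minus strand): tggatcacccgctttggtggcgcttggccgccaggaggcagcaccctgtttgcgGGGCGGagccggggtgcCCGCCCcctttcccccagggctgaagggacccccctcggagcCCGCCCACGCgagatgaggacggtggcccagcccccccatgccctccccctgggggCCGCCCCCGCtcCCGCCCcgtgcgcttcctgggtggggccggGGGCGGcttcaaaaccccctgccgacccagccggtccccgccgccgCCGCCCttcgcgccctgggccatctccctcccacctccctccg
TGFB2 (chr1:218345086-218345385, plus strand): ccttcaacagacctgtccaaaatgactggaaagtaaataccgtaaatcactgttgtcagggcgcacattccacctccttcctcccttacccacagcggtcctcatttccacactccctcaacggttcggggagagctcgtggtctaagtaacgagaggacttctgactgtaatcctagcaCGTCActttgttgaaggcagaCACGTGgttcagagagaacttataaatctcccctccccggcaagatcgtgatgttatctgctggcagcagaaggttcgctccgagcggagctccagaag

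The window of GDF15 held 2 GC boxes, that of INHBB 10 and that of TGFB1 7, while that of TGFB2 held 0. GDF11, which did not pass the test, had 9 GC boxes and 1 EGR1 match, so these counts do not separate the ligands that rose from the one that did not. The 3 windows of BMP4 held 3, 0 and 2 GC boxes, and that of INHBA held 0. A GC box was present in 45.0% of 35116 promoters of the same length. EGR1 letters were found 3 times at INHBB and 2 times at TGFB1, against 9.43% of all promoters with at least 1 match, and 2 of these matches at INHBB and 2 at TGFB1 overlapped a GC box. The TGFB2 window held 1 E-box and 1 cyclic AMP response core, letters present in 7.26% and 24.6% of promoters. AP-1 and C/EBP-ATF letters, present in 7.71% and 3.62% of promoters, were in none of these 4 windows. A match is a string of letters and was not tested as a binding site.

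GDF15, the stress-induced cytokine (ENSG00000130513.6, GRCh38 chromosome 19, 18374731 to 18389176, plus strand), was counted 916, 1756 and 699 times in the BP+Huaier libraries and 100, 119 and 117 times in the BP libraries. As CPM, a share of the library scaled by TMM factors, these were 63.9, 130 and 40.2 in BP+Huaier and 5.48, 6.32 and 6.90 in BP. Every BP+Huaier library lay above every BP library, with BP+Huaier 2 the highest and BP+Huaier 3 the lowest of its group. Groups without overlap were found for 46.8% of all genes tested, and with BP+Huaier on the higher side for 21.9%. The mean was 77.9 ± 46.3 CPM in BP+Huaier and 6.23 ± 0.712 CPM in BP (SD, n = 3 each), a 12.5-fold rise with a log2 fold change of 3.64 ± 0.40 (SE; adjusted p = 0.0011, edgeR). The transcript has a GC content of 62.9%. Correcting each library for GC content and length gave a log2 fold change of 3.29. In bulk samples, more cells that make a transcript and more of it per cell cannot be told apart.

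An intron of GDF15 holds the microRNA gene MIR3189, which shares 0 bases with its exons and was counted separately. It was counted 5, 3 and 2 times in BP+Huaier and 0 times in each BP library. Against a floor of 3 counts over the BP group, its summed counts in BP+Huaier gave a ratio of 3.98. This ratio leaves out the counting error of the BP+Huaier counts and is no lower limit. The counts were too few for a test. Unspliced GDF15 RNA and the microRNA precursor cannot be told apart in these counts. The mature forms from RefSeq (GRCh38.p14) are shown with the seed, bases 2 to 8, in capitals, because this is the microRNA encoded within the GDF15 gene.
hsa-miR-3189-5p: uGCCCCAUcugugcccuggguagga
hsa-miR-3189-3p: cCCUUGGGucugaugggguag

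Both genes beside GDF15 on chromosome 19 were in the table. PGPEP1, a pyroglutamyl peptidase gene that lies upstream, was counted 2238, 1849 and 1879 times in BP+Huaier and 1245, 1280 and 1245 times in BP, a log2 fold change of 0.93 (adjusted p = 0.0043, edgeR). LRRC25, on the other strand, had 0 counts in every BP+Huaier library and 0, 0 and 1 counts in the BP libraries. These neighbours were chosen for their position.

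TGFB1, the founding ligand of the family (ENSG00000105329.11, chromosome 19, 41301587 to 41353922, minus strand), was counted 2087, 1973 and 1472 times in BP+Huaier and 896, 939 and 983 times in BP. The CPM values were 146, 146 and 84.7 in BP+Huaier and 49.1, 49.9 and 57.9 in BP. The groups did not overlap, and BP+Huaier 3 lay nearest to the BP libraries. TGFB1 rose 2.39-fold, to 125 ± 35.1 CPM in BP+Huaier, against 52.3 ± 4.89 CPM in BP (SD, n = 3 each), a log2 fold change of 1.26 ± 0.21 (SE; adjusted p = 0.0043, edgeR). With a GC content of 63.5% it had the most GC-rich transcript of the 9 ligands, and correcting for GC content and length gave a log2 fold change of 0.85. Its exons share 215 bases, 6.59% of their length, with HNRNPUL1 on the opposite strand, which did not pass the test (log2 fold change 0.32, adjusted p = 0.13, edgeR).

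TGFB2, a further isoform that binds type II receptors less tightly and relies on betaglycan (ENSG00000092969.12, chromosome 1, 218345336 to 218444619, plus strand), had 0, 1 and 0 counts in BP+Huaier and 13, 11 and 6 counts in BP. The highest BP+Huaier library lay below the lowest BP library. Summed over each group and scaled, 1 count in BP+Huaier and 30 counts in BP gave a ratio 25.1-fold lower in BP+Huaier (95% exact conditional binomial interval of 4.18 to 1026, for counting error only). The filter on low counts removed TGFB2 from the test. Without the filter its edgeR adjusted p was 0.0014 at a log2 fold change of -4.20, a size that depends on how 0 counts are treated. Its exons overlap TGFB2-OT1 on the same strand over 22.7% of their length, a gene with 0 counts in every library. Reads on shared bases may be left uncounted for both genes, so this 0 does not show that the overlap is without effect.

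INHBB, which encodes the beta B subunit of activin B and inhibin B (ENSG00000163083.6, chromosome 2, 120346136 to 120351803, plus strand), was counted 44, 42 and 51 times in BP+Huaier and 22, 23 and 20 times in BP. In CPM it stood at 3.07, 3.10 and 2.93 in BP+Huaier and at 1.21, 1.22 and 1.18 in BP. INHBB had the smallest spread among the tested ligands, and BP+Huaier 3 did not stand apart for it. At 20 to 51 counts per library, counting error is wider than this spread, which is therefore no measure of precision. It rose 2.51-fold, to 3.03 ± 0.0874 CPM in BP+Huaier, against 1.20 ± 0.0216 CPM in BP (SD, n = 3 each), a log2 fold change of 1.33 ± 0.24 (SE; adjusted p = 0.0056, edgeR).

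INHBE, the beta E subunit gene, best known from liver (ENSG00000139269.3, chromosome 12, 57452323 to 57459280, plus strand), had 10, 16 and 21 counts in BP+Huaier and 5, 4 and 0 counts in BP. Each BP+Huaier library lay above each BP library. The summed counts of 47 in BP+Huaier and 9 in BP gave a ratio of 6.23 after scaling (95% exact conditional binomial interval of 3.02 to 14.5, for counting error only). The filter removed INHBE from the test as well, and without the filter its edgeR adjusted p was 0.00061 at a log2 fold change of 2.62. A gene without a name on the opposite strand shares 499 of its exon bases, 16.4% of their length.

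INHBA, the beta A subunit of activin A, had 0 counts in all BP+Huaier libraries and 0, 0 and 1 counts in the BP libraries. BMP2, a bone morphogenetic protein, had 0, 1 and 0 counts in BP+Huaier and 0 in each BP library, and BMP4, its relative, had 0 counts in all 6. A count of 0 allows up to 3 counts, which correspond to between 0.173 and 0.221 CPM in the BP+Huaier libraries and between 0.159 and 0.177 CPM in the BP libraries. A change of these 3 genes was not detectable at this depth.

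GDF11, a ligand close to myostatin that acts through activin receptors (ENSG00000135414.10, chromosome 12, 55743122 to 55757264, plus strand), was counted 160, 123 and 130 times in BP+Huaier and 123, 116 and 139 times in BP. The CPM values were 11.2, 9.07 and 7.48 in BP+Huaier and 6.74, 6.16 and 8.19 in BP, so the groups overlapped. The log2 fold change of 0.39 ± 0.21 (SE) did not pass the test (adjusted p = 0.18, edgeR). Without BP+Huaier 3 it was called higher (log2 fold change 0.54, adjusted p = 0.019, edgeR).

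**Figure D1:**
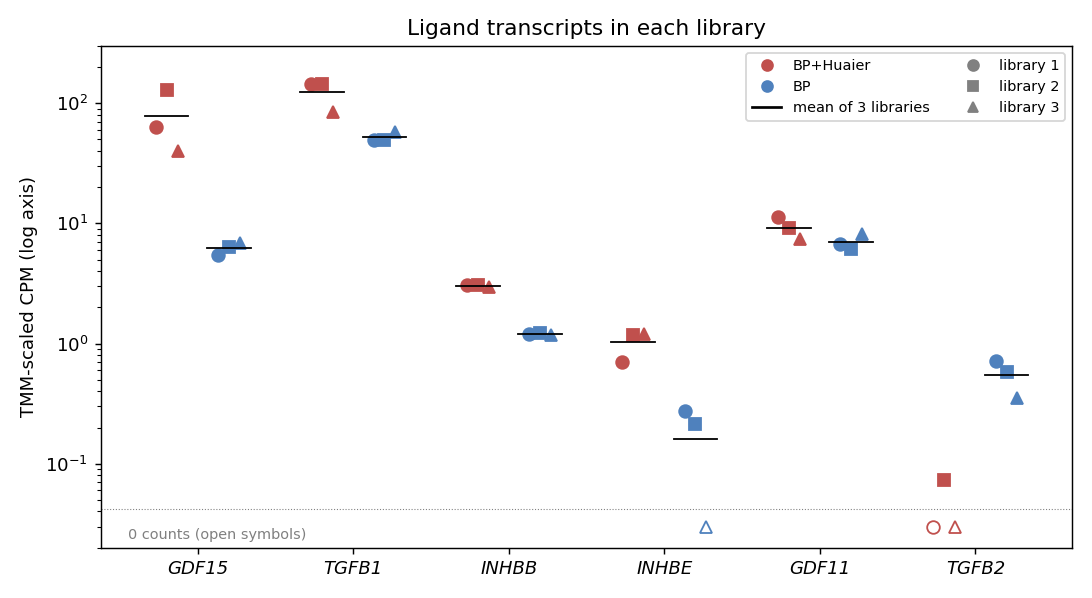
TMM-scaled CPM (log axis) of the 6 ligands with more than 1 count in a library, with BP+Huaier in red at the left and BP in blue at the right of each gene. Symbols are libraries, bars are means of 3 libraries where they lie above the dotted line, and open symbols are libraries with 0 counts; the groups do not overlap except for GDF11.

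The rises of GDF15, INHBB and TGFB1 were called in each setting in which the gene was tested, including each fit with 1 library left out. The log2 fold change of GDF15 was lowest without BP+Huaier 2, at 3.07, and highest without BP+Huaier 3, at 3.96. For TGFB1 it lay between 1.15 and 1.49 with 1 library left out, and for INHBB between 1.33 and 1.36. With limma-voom and 1 variance factor per group, which lets BP+Huaier vary more than BP, the adjusted p was 8.4e-06 for GDF15, 0.0055 for INHBB and 0.00055 for TGFB1 (limma).

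**Figure D2:**
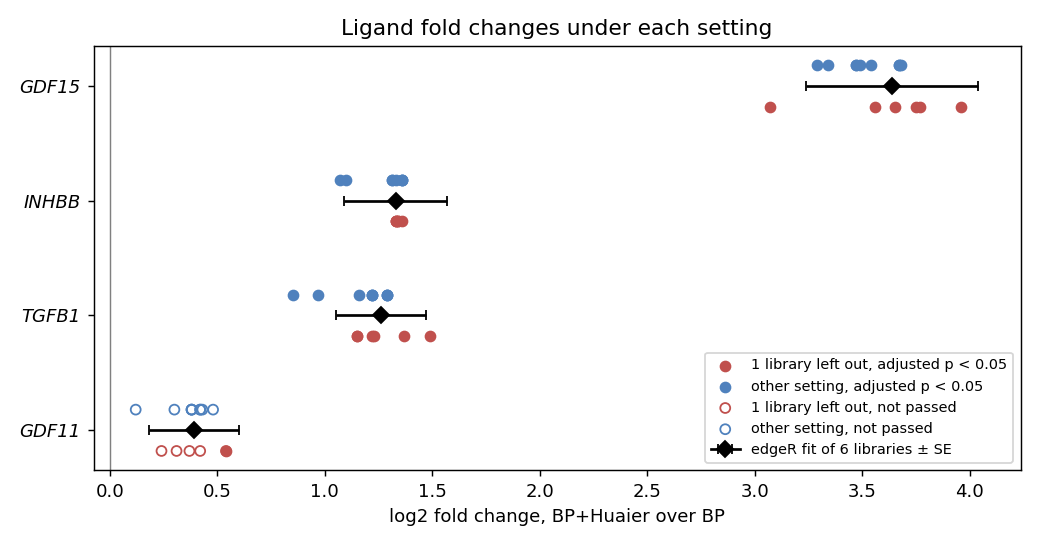
Log2 fold change of BP+Huaier over BP for the 4 tested ligands, where diamonds are the edgeR fit of all 6 libraries with SE bars, red points leave out 1 library and blue points change another setting. Filled points have an adjusted p under 0.05; GDF15 lies between 3.07 and 3.96 in all of them, and GDF11 has 1 filled point, without BP+Huaier 3.

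Per length, TGFB1 and GDF15 were the most abundant of the 9 ligands in both groups. As RPKM, the TMM-scaled CPM per kilobase of exon, TGFB1 stood at 38.4 ± 10.8 in BP+Huaier and 16.0 ± 1.5 in BP, and GDF15 at 37.3 ± 22.2 in BP+Huaier and 2.99 ± 0.341 in BP (SD, n = 3 each). In BP+Huaier these levels did not differ beyond their spread, and GDF11 (1.05 ± 0.210) and INHBB (0.946 ± 0.0273) followed, also within their spread of each other, ahead of INHBE (0.338 ± 0.0943). In BP, GDF11 (0.799 ± 0.119) lay above INHBB (0.375 ± 0.00675), and TGFB2 (0.0910 ± 0.0301) and INHBE (0.0533 ± 0.0472) were within their spread of each other.

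A ratio within a library does not depend on how libraries are scaled. The RPKM of GDF15 over that of TGFB1 was 0.686, 1.39 and 0.743 in BP+Huaier and 0.175, 0.198 and 0.186 in BP. Per length, GDF15 thus exceeded TGFB1 in BP+Huaier 2 and stayed below it in the other libraries. As CPM, GDF15 was below TGFB1 in BP+Huaier 2 too, at 130 against 146, so that order rests on the exon lengths used. The RPKM of INHBB over that of TGFB1 was 0.0215, 0.0217 and 0.0353 in BP+Huaier and 0.0250, 0.0249 and 0.0207 in BP, values that overlapped between the groups.

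With 24 other ligand genes of the superfamily added, the summed RPKM of the 33 ligands was 110 ± 32.4 in BP+Huaier and 45.6 ± 3.83 in BP (SD, n = 3 each). GDF15 made up 27.6%, 44.0% and 25.2% of this sum in BP+Huaier and 5.93%, 7.12% and 6.63% in BP. The share of TGFB1 was 35.2% ± 4.42 in BP+Huaier and 35.2% ± 1.05 in BP, equal on average although its level rose. BMP7, known from kidney and bone development, held 12.4% ± 1.80 in BP+Huaier and 17.5% ± 0.415 in BP, and AMH, the anti-Müllerian hormone, 9.45% ± 4.10 in BP+Huaier and 20.4% ± 1.69 in BP. The level of AMH did not pass the test, at 24.5 ± 3.06 CPM in BP+Huaier and 24.1 ± 3.52 CPM in BP (adjusted p = 0.92, edgeR). Its lower share thus reflects the larger sum.

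**Figure D3:**
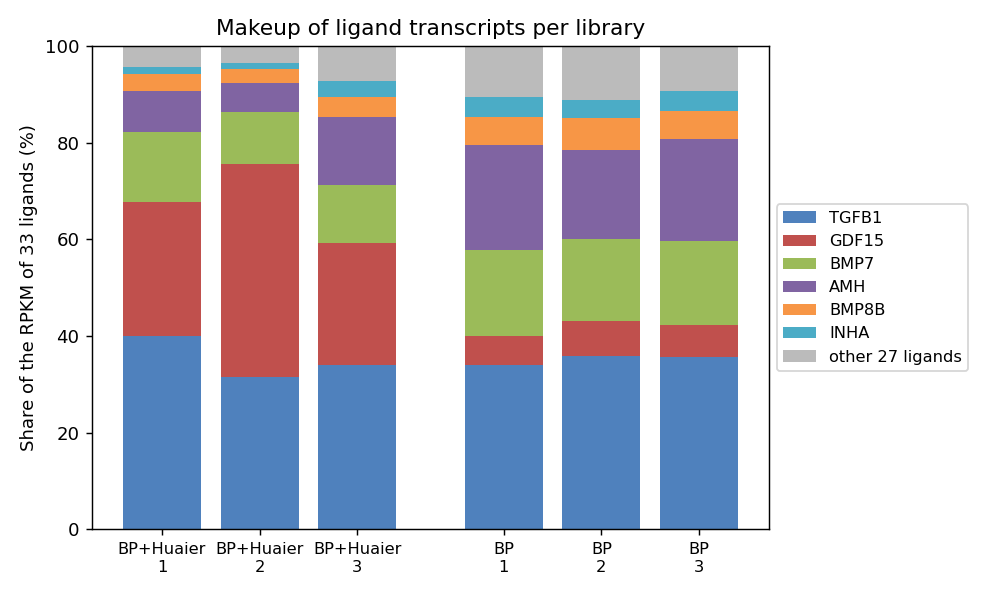
Stacked shares (%) of the summed RPKM of 33 ligand genes in each library, with the 3 BP+Huaier libraries at the left and the 3 BP libraries at the right. The red part, GDF15, covers between 25.2% and 44.0% in BP+Huaier and between 5.93% and 7.12% in BP, while the blue part, TGFB1, averages 35.2% in both groups.

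In the fit of all 6 libraries, 14.4% of all genes tested were called higher and 15.0% lower, for comparison with each list below. Of the 24 other ligands, 9 were tested, 2 rose and 2 fell (median log2 fold change 0.03, against -0.02 over all genes tested), and 8 had 0 counts in every library. Among these 8, GDF1 shares 100% of its exon bases with CERS1 on the same strand. Reads on shared bases may be left uncounted for both genes, so the 0 of GDF1, also in the ligand sum above, does not show absence. BMP6, a BMP known for its part in iron sensing, rose 3.95-fold, with 3.77, 4.94 and 4.89 CPM in BP+Huaier and 1.21, 1.33 and 0.884 CPM in BP (adjusted p = 0.0018, edgeR). BMP7 rose 1.69-fold, to 73.2 ± 20.2 CPM in BP+Huaier, against 43.2 ± 3.85 CPM in BP (SD, n = 3 each; adjusted p = 0.027, edgeR). BMP3, a BMP that opposes bone formation, fell 2.19-fold, and BMP8A fell 2.13-fold, a value that is uncertain because BMP8A and BMP8B are near-identical copies. BMP8B was at 18.1 ± 2.13 CPM in BP+Huaier and 13.3 ± 0.892 CPM in BP and did not pass (adjusted p = 0.064, edgeR). The BMP7 call was lost without each library except BP+Huaier 3, that of BMP8A without each BP library and BP+Huaier 2, and that of BMP3 without BP 1, BP 2, BP+Huaier 1 or BP+Huaier 2 (adjusted p up to 0.11, edgeR). Scaling with library size alone also ended the BMP7 call (adjusted p = 0.067, edgeR).

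Of 18 receptors and co-receptors, 13 were tested, 1 rose and 1 fell (median log2 fold change 0.07). RGMA, a BMP co-receptor, rose 2.50-fold, with 10.7, 10.0 and 5.93 CPM in BP+Huaier and 4.39, 2.82 and 3.42 CPM in BP (adjusted p = 0.0095, edgeR). BMPR1A, a type I BMP receptor, fell 1.53-fold, to 30.2 ± 4.90 CPM in BP+Huaier, against 46.2 ± 4.31 CPM in BP (SD, n = 3 each; adjusted p = 0.021, edgeR). Without BP 2 the RGMA call was lost (0.054), and without any of the BP libraries or BP+Huaier 2 that of BMPR1A (adjusted p up to 0.10, edgeR). Without BP+Huaier 3, 4 receptors were called higher and 3 lower, in a fit that called 28.8% of all genes higher and 31.0% lower.

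TGFBR2, the type II receptor for TGF-betas, was close to absent, at 0.279, 0 and 0.0575 CPM in BP+Huaier and 0, 0.319 and 0.177 CPM in BP. Its type I partner TGFBR1 was at 13.0 ± 3.95 CPM in BP+Huaier and 15.3 ± 2.38 CPM in BP and did not pass (adjusted p = 0.48, edgeR), though without BP+Huaier 3 it was called lower (0.017). The activin type II receptor ACVR2A, at 2.25 ± 0.544 CPM in BP+Huaier and 2.95 ± 0.427 CPM in BP, and the BMP type II receptor BMPR2, at 28.4 ± 6.57 CPM in BP+Huaier and 41.0 ± 4.37 CPM in BP (SD, n = 3 each), did not pass (adjusted p = 0.30 and 0.061, edgeR), though BMPR2 was called lower without BP+Huaier 3 (0.0005). GFRAL, the receptor of GDF15, had 0 counts in every library. RET, its signalling partner, was at 18.3, 19.0 and 16.4 CPM in BP+Huaier and 12.7, 13.5 and 14.3 CPM in BP, which did not overlap but did not pass the test (adjusted p = 0.067, edgeR). RET was called higher without BP+Huaier 3 (0.0073, edgeR) and by DESeq2 (adjusted p = 0.038).

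Among 20 secreted antagonists and latency proteins, 11 were tested, 1 rose and 0 fell (median log2 fold change 0.23). FSTL3, which binds and blocks activins, rose 1.67-fold, with 53.1, 45.5 and 34.0 CPM in BP+Huaier and 26.6, 23.9 and 29.1 CPM in BP (adjusted p = 0.018, edgeR). FST, the related follistatin, had at most 0.0697 CPM in BP+Huaier and 0.110 CPM in BP. Leaving out any BP library or BP+Huaier 2 ended the FSTL3 call (adjusted p up to 0.091, edgeR), as did library size alone (0.059), and correction for GC content and length left a log2 fold change of 0.33. Without BP+Huaier 3 there were 5 rises and 1 fall, in the fit that called 28.8% of all genes higher and 31.0% lower.

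In the list of processing and activation, 11 of 15 genes were tested, 1 rose and 1 fell (median log2 fold change -0.05). PLAU, the urokinase that activates plasmin and through it latent TGF-beta, rose 2.34-fold, with 339, 403 and 264 CPM in BP+Huaier and 134, 150 and 146 CPM in BP (adjusted p = 0.0022, edgeR). Its exons share 31% of their bases with C10orf55 on the opposite strand, and no strand setting is given for the counting. PCSK6, a proprotein convertase, fell 1.58-fold (adjusted p = 0.028, edgeR), a call lost without each library except BP+Huaier 3. FURIN, the main convertase of the family, was at 160, 125 and 100 CPM in BP+Huaier and 101, 97.6 and 109 CPM in BP and did not pass (adjusted p = 0.19, edgeR), except without BP+Huaier 3, where it was called higher (0.0021). Without BP+Huaier 3 there were 3 rises and 3 falls, where 28.8% of all genes were called higher and 31.0% lower.

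All 16 SMAD genes and SMAD regulators were tested, 3 rose and 3 fell (median log2 fold change -0.32). SMAD3, which carries TGF-beta and activin signals, rose 1.48-fold, to 185 ± 18.9 CPM in BP+Huaier, against 125 ± 5.86 CPM in BP (SD, n = 3 each; adjusted p = 0.015, edgeR). TGIF1, a corepressor of SMAD-driven transcription, rose 2.00-fold, with 109, 117 and 103 CPM in BP+Huaier and 54.3, 54.0 and 55.8 CPM in BP (adjusted p = 0.0015, edgeR), and SMURF1, a ubiquitin ligase for SMADs, rose 1.42-fold. SMURF2, a related ligase, fell 1.6-fold, as did ZFYVE9, an anchor of SMADs at endosomes, by 1.61-fold and TRIM33, a SMAD4 regulator, by 1.88-fold (adjusted p = 0.049, 0.034 and 0.045, edgeR). These 3 falls were called neither without any BP library nor without BP+Huaier 1 or 2. Without BP+Huaier 3 the list had 4 rises and 7 falls, where 28.8% of all genes were called higher and 31.0% lower. With any BP library or BP+Huaier 2 left out, the list had 1 rise, and the SMAD3 call was among those lost (adjusted p up to 0.083, edgeR; 0.16 with scaling by library size alone).

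SMAD2, with 70.9 ± 10.1 CPM in BP+Huaier and 75.3 ± 3.91 CPM in BP, and SMAD4, the partner of all receptor SMADs, with 58.6 ± 12.1 CPM in BP+Huaier and 63.8 ± 5.92 CPM in BP (SD, n = 3 each), did not pass (adjusted p = 0.67 and 0.61, edgeR), and without BP+Huaier 3 SMAD4 was called lower (0.037). Corrected for GC content and length, SMAD2 was called higher, with a log2 fold change of 0.55 (adjusted p = 0.0086, edgeR). No other setting called SMAD2. Its exons span 36426 bases, and the part of this length in the corrected value was not tested. SMAD7, the inhibitory SMAD that TGF-beta induces, was at 0.418, 0.443 and 0.575 CPM in BP+Huaier and 0.932, 0.903 and 0.943 CPM in BP, lower in all BP+Huaier libraries without passing the test (adjusted p = 0.084, edgeR; 0.039 when corrected for GC content and length). These values rest on 6, 6 and 10 counts in BP+Huaier and 17, 17 and 16 counts in BP, so their closeness within BP is no measure of precision.

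Genes known as SMAD targets went both ways. Of 16 listed, 12 were tested, 5 rose and 4 fell (median log2 fold change 0.11). PMEPA1, a feedback inhibitor of TGF-beta signalling, rose 2.54-fold, to 26.0 ± 5.16 CPM in BP+Huaier, against 10.2 ± 1.21 CPM in BP (SD, n = 3 each; adjusted p = 0.0024, edgeR). COL1A1, a collagen chain, rose 4.4-fold, with 6.42, 6.12 and 5.18 CPM in BP+Huaier and 1.37, 1.22 and 1.41 CPM in BP (adjusted p = 0.00089, edgeR). ANGPTL4 and BHLHE40 rose 1.93-fold and 1.58-fold.

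The falls included the matrix protein fibronectin, FN1, which fell 4.39-fold, with 0.349, 1.03 and 0.460 CPM in BP+Huaier and 2.91, 3.08 and 2.00 CPM in BP (adjusted p = 0.0071, edgeR). ID2 and ID3, inhibitors of differentiation that BMPs induce, fell 2.49-fold and 1.82-fold, and TAGLN, an actin-binding protein, fell 1.61-fold. The exons of TAGLN share 34.1% of their bases with PCSK7 on the opposite strand and 38.1% with a gene without a name on the same strand. ID3 was at 165, 128 and 80.0 CPM in BP+Huaier and 229, 198 and 250 CPM in BP, and ID1, with 199 ± 41.5 CPM in BP+Huaier and 217 ± 20.0 CPM in BP (SD, n = 3 each), did not pass (adjusted p = 0.61, edgeR). Without BP 1, BP 2 or BP+Huaier 2 there were 3 rises and 2 falls, and without BP 3 there were 4 rises and 2 falls.

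Among 14 transcription factors of stress responses and early signalling, several of which are known to switch on GDF15, all were tested, 9 rose and 0 fell (median log2 fold change 0.94), and 1 fall was called without BP+Huaier 3. These genes were listed with the change of GDF15 and of many stress genes in these libraries known. DDIT3, the stress factor CHOP, rose 10.0-fold, with 47.1, 118 and 58.0 CPM in BP+Huaier and 7.07, 6.85 and 8.37 CPM in BP, and MARS1, which runs the other way, covers 27.2% of its exon bases. ATF3 rose 5.24-fold, and EGR1 rose 5.28-fold, with 414, 522 and 373 CPM in BP+Huaier and 81.2, 84.0 and 82.7 CPM in BP (adjusted p = 0.0028 for ATF3 and 0.00042 for EGR1, edgeR). FOS, an AP-1 subunit, rose 12.4-fold, to 92.9 ± 105 CPM in BP+Huaier, against 7.48 ± 0.742 CPM in BP (SD, n = 3 each), and its log2 fold change of 3.63 was 2.14 without BP+Huaier 2. CEBPB and JUN, which pair with factors of these families, rose 3.78-fold and 3.65-fold, and the lysosomal regulators TFE3 and TFEB 1.98-fold and 1.85-fold.

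ATF4, the factor upstream of CHOP, rose 1.52-fold, to 441 ± 80.5 CPM in BP+Huaier, against 290 ± 5.90 CPM in BP (SD, n = 3 each; adjusted p = 0.023, edgeR), a call that ended when any BP library or BP+Huaier 2 was left out (adjusted p up to 0.11, edgeR). Over all alternatives the call was lost in 6 and kept in 10, with log2 fold changes from 0.33 to 0.75.

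**Figure D4:**
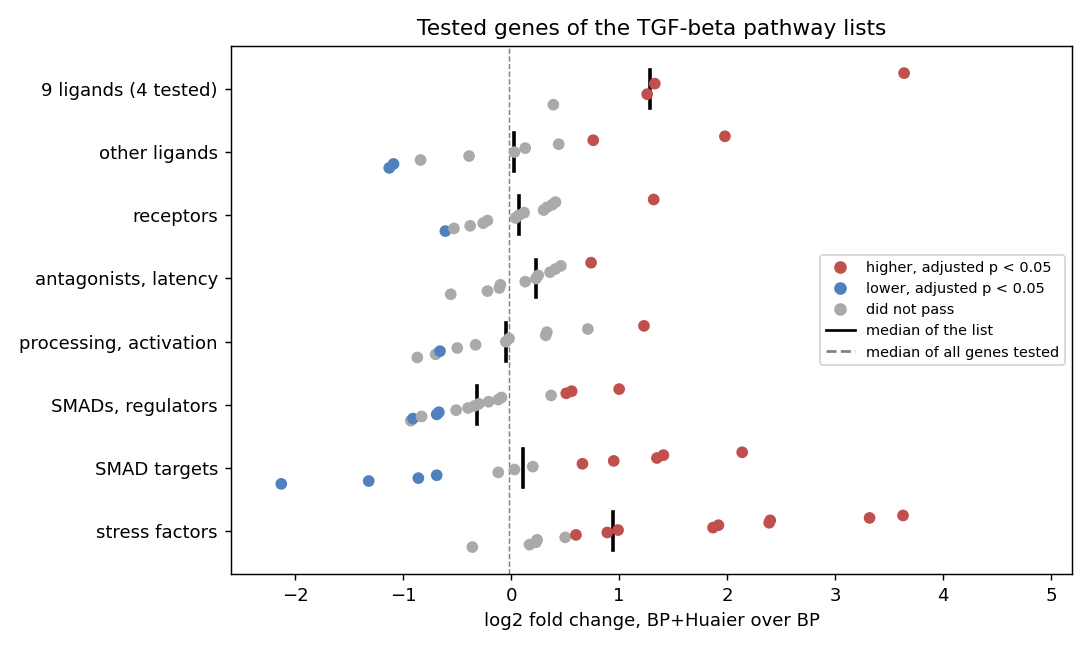
Log2 fold change of BP+Huaier over BP for each tested gene of the 9 ligands and of 7 related gene lists, with red for called higher, blue for called lower and grey for not passed. Black bars are list medians, from -0.32 for SMADs and their regulators to 1.29 for the 4 tested ligands, and the dashed line is the median of all genes tested, -0.02.

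Across the 7 lists together, 86 of 123 genes were tested, 22 rose, 11 fell and 53 did not pass. Of all genes tested, 14.4% were called higher and 15.0% lower. The counts of the lists moved with single libraries. Without BP 1, BP 2 and BP 3 there were 14, 13 and 15 rises and 2, 2 and 3 falls. Without BP+Huaier 1, 2 and 3 there were 20, 14 and 36 rises and 6, 2 and 22 falls. Calls over all genes moved the same way. Without BP 1, BP 2 and BP 3, 5.27%, 5.46% and 6.61% of all genes were called higher and 5.92%, 6.14% and 6.84% lower. Without BP+Huaier 1, 2 and 3, 11.4%, 6.08% and 28.8% were called higher and 11.8%, 6.48% and 31.0% lower.

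The genes whose levels followed GDF15 most closely over the 6 libraries were DUSP1, ZFP36, CDKN1C, PHLDA2, MAFF and NR4A1. They were taken from 10118 protein-coding genes of at least 5 CPM by the smallest root-mean-square difference in log2(CPM + 1) after each gene was centred on its mean. The difference was 0.157 for DUSP1, a MAP kinase phosphatase, 0.165 for ZFP36, an RNA-binding protein that destabilises AU-rich messages, and 0.165 for CDKN1C, a cyclin-dependent kinase inhibitor. It was 0.221 for PHLDA2, an imprinted gene beside CDKN1C, 0.289 for MAFF, a small MAF factor, and 0.307 for NR4A1, an early nuclear receptor. PHLDA2, for example, was at 251, 549 and 143 CPM in BP+Huaier and 35.0, 35.4 and 32.1 CPM in BP. Like GDF15, all 6 were highest in BP+Huaier 2 and, within that group, lowest in BP+Huaier 3, an order that choosing genes by their profile favours.

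**Figure D5:**
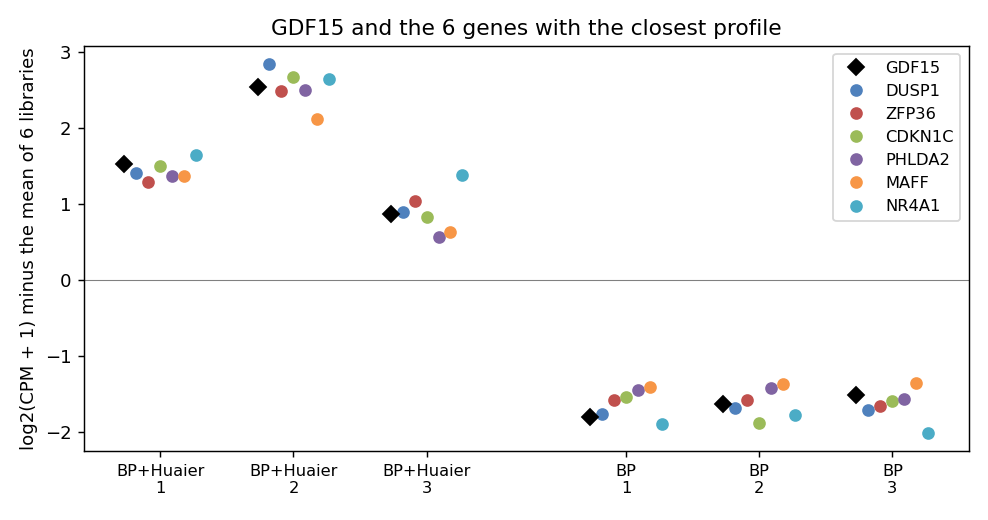
Values of log2(CPM + 1), less each gene's mean over 6 libraries, for GDF15 (black diamonds) and the 6 genes with the closest profile (coloured points), with BP+Huaier libraries at the left and BP libraries at the right. All 7 genes are highest in BP+Huaier 2, and every BP value lies below every BP+Huaier value, as the choice by profile favours.

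VIM and KRT8, markers of the line, were high in both groups, with 3457 ± 334 and 1326 ± 487 CPM in BP+Huaier and 3487 ± 164 and 940 ± 70.2 CPM in BP (SD, n = 3 each), while EPCAM and CDH1 had at most 0.266 CPM in any library. Of the 9 line markers 7 were tested, KRT19 rose 2.05-fold, KRT18 rose 1.71-fold and MUC1 fell 1.59-fold (adjusted p = 0.017, 0.037 and 0.012, edgeR). PTPRC of leukocytes, DCN and LUM of fibroblasts and INS, GCG and PRSS1 of the pancreas had 0 counts throughout. Summed leukocyte markers, 2 of 6 of them at 1 CPM or more, ranged from 22.4 to 34.9 CPM in BP+Huaier and from 41.4 to 46.7 CPM in BP, fibroblast markers (3 of 6 at 1 CPM or more) from 385 to 488 CPM in BP+Huaier and from 501 to 557 CPM in BP, and endothelial markers from 12.7 to 16.1 CPM in BP+Huaier and from 18.9 to 21.7 CPM in BP. Most of the fibroblast sum was COL1A2, which did not pass (430 ± 52.3 CPM in BP+Huaier and 518 ± 28.0 CPM in BP; SD, n = 3 each; adjusted p = 0.19, edgeR), while COL1A1 of the same list rose, as given above. Most of the leukocyte sum was CD14, which did not pass (28.7 ± 6.86 CPM in BP+Huaier and 42.5 ± 2.54 CPM in BP; SD, n = 3 each; adjusted p = 0.051, edgeR). Most of the endothelial sum was CDH5, which fell 1.49-fold (12.7 ± 1.69 CPM in BP+Huaier and 18.9 ± 1.92 CPM in BP; SD, n = 3 each; adjusted p = 0.03, edgeR). The part of these markers in the ligand results was not tested.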

How the data were processed

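RNA was sequenced from 3 BP+Huaier and 3 BP libraries. The submitters' processing notes name fastp 0.20.0, HISAT2 2.1.0, featureCounts 1.6.1 and GRCh38; annotation release, strand and multi-mapping settings are not stated there. The authors deposited raw counts per gene. Of these, 3 broken lines holding 1 gene and 44 Y copies of pseudoautosomal genes were left out, and 60604 genes were used, 99.77% with a symbol.

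Genes passing filterByExpr (15022) were scaled by TMM and tested in R 4.3.3 with robust quasi-likelihood fits of edgeR 4.0.16, group being the only term. Standard errors follow from the test. The biological coefficient of variation was 18.1%. Ratios of few counts, except that of MIR3189, have exact conditional binomial intervals at 95%, and these and floors of 3 counts cover counting error only. Alternatives were DESeq2 size factors, library size alone, DESeq2 1.42.0, limma-voom (limma 3.58.1) with and without 1 variance factor per group, no filter, at least 5 CPM, an adjusted p under 0.01, the replicate number as block, correction for GC content and length by splines (GENCODE release 29), and leaving out each library. Within a group, libraries varied 3.74 to 74.1 times as much as sampling alone gives, so each was kept as its own sample. The steps were tested on simulated counts.

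Members and lists were chosen with earlier results of these data known. The text names the 9 ligands, a set of pathway genes, per list the called genes (at most 4, mean of 1 CPM or more) that changed most, and the 6 genes most like GDF15. Other list members, and neighbours of GDF15, were named after their values were seen. Of the genes that this rule selects, 2 are counted in their lists but not reported here.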

Additional observations from a re-analysis of the deposited data

How the results depend on the processing

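GDF15, INHBB and TGFB1 kept their direction and their call in all alternatives in which they were tested, with log2 fold changes of 3.07 to 3.96, 1.07 to 1.36 and 0.85 to 1.49. INHBB was not tested among genes of at least 5 CPM. With 1 library left out, GDF11 ranged from 0.24 to 0.54, and the call came without BP+Huaier 3. Ligands called higher numbered 2 to 4, the fourth being INHBE or, without BP+Huaier 3, GDF11. Ligands called lower numbered 0 to 1 with 1 library left out and 1 with no filter on low counts, and the gene was TGFB2, which then entered the test. The log2 ratio of summed counts ranged from 2.1 to 3.22 for INHBE and from -4.91 to -3.95 for TGFB2, which has no value without BP+Huaier 2.

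Rises among the other pathway genes numbered 13 to 36 and falls 2 to 22 with 1 library left out, and 14 and 2 at an adjusted p under 0.01. Falls numbered 6 among genes of at least 5 CPM, where fewer genes are tested, and 18 with correction for GC content and length. With the replicate number as a block, falls numbered 6, and GDF15, INHBB and TGFB1 had adjusted p of 0.0016, 0.023 and 0.012 in edgeR. The deviations of same-numbered libraries from their group means correlated at 0.015, -0.098 and -0.378 over genes. Those of differently numbered libraries correlated between -0.381 and 0.382. With 3 libraries per group, of which BP+Huaier 3 stood apart, these values cannot show whether libraries were paired, and the labels state no pairing. Corrected for GC content and length, the log2 fold change was -0.06 for FURIN, 0.55 for SMAD2 and 0.20 for SMAD4, and for SMAD2 it was between -0.20 and 0.00 with 1 library left out. With library size alone, log2 fold changes over all genes had a median of -0.28. The causes were not tested. Depth limits INHBA, BMP2, BMP4, INHBE and TGFB2.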
